A study of Mus musculus with 4 samples.

Results

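The genes described here encode the proteins of the cytosolic ribosome, in mouse dendritic cells. They were chosen by symbol: a gene belonged when its symbol had the form of a large-subunit (Rpl) or small-subunit (Rps) protein followed by a number, with the stalk proteins Rplp0 and Rplp2 and the laminin-receptor protein Rpsa, and when at least 1 array probe set carried that symbol alone. This gave 48 of the 12393 genes named on the array, 26 of the large and 22 of the small subunit. The rule itself uses no measured value.

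Total RNA was read on 1 array for each of 4 groups. All cells were CD11c+ dendritic cells of the IL10-/- genotype, so every group lacked interleukin 10, and no wild-type cells were among the 4 samples. Cells spent 6 h in media alone (MEDIA), with SEA, with LPS (bacterial lipopolysaccharide) or with both (SEA/LPS), and all 4 carry the same lot label. The labels do not spell out SEA, the tissue, the doses, or whether separate cultures or animals were used.

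A ribosome is built from ribosomal RNA and a set of proteins, most of which are needed in equal numbers. Their genes are among the most strongly transcribed in growing cells. Many of their mRNAs begin with a cytosine followed by a run of pyrimidines, the terminal oligopyrimidine or TOP motif, through which mTORC1 signalling adjusts their translation. In dendritic cells, sensing of a microbial product such as LPS is followed by large changes in transcription and by changes in protein synthesis.

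The start regions of the genes are shown first, because a comparison further on sorts the members by whether such a run lies at the annotated start. RefSeq start windows (assembly GRCm38.p6) were matched for 42 of the 48 members. The 8 members whose annotated first base is a C followed by 4 more pyrimidines are printed here, 35 bases before the start and 15 from it on, 5′ to 3′, with capitals for the longest pyrimidine run that opens with a C no more than 5 bases before or after the start; pyrimidines that carry such a run further upstream stay in lower case.
Rpl14, chr9:120571482-120571531, plus strand: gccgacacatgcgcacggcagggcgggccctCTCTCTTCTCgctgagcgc
Rpl35, chr2:39005117-39005166, minus strand: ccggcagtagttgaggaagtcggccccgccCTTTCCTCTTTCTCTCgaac
Rpl38, chr11:114668545-114668594, plus strand: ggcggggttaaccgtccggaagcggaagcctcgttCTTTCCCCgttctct
Rplp2, chr7:141447616-141447665, plus strand: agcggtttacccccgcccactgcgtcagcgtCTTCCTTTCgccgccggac
Rps10, chr17:27635230-27635279, minus strand: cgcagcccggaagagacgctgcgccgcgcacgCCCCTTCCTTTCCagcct
Rps18, chr17:33955651-33955700, minus strand: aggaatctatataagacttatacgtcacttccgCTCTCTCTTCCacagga
Rps27, chr3:90213634-90213683, minus strand: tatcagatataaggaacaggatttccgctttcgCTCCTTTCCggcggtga
Rps6, chr4:86857353-86857402, minus strand: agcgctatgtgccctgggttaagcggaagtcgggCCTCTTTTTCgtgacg
The stalk base Rplp0, the laminin-receptor protein Rpsa, Rpl11 and Rps3, shown for contrast and chosen by name rather than by value, have 1 start window each and no such run within 5 bases of the start, so theirs hold no capitals.
Rplp0, chr5:115559432-115559481, plus strand: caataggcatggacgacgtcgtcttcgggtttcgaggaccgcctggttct
Rpsa, chr9:120127731-120127780, plus strand: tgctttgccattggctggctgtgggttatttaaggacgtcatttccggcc
Rpl11, chr4:136053379-136053428, minus strand: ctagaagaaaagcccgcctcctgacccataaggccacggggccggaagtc
Rps3, chr7:99483695-99483744, minus strand: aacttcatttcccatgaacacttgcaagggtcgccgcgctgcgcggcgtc

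A run at the start base itself was found in 8 of 42 members, or 19%, against 3.01% of the 27025 genes of the promoter table and 0 of 65 mitochondrial ribosomal protein genes. Counting a run of at least 5 pyrimidines, opened by C, that begins up to 5 bases either side of the start, the share was 20 of 42 members (47.6%) against 21.2% of all genes and 24.6% of the mitochondrial ribosomal protein genes. Over the full window of 250 bases before to 50 after the start, read on both strands, CCGGAAG, the letters bound by ETS-family factors, stood in 50% of the members and 9.93% of all genes. TATAAA stood in 14.3% of the members and 15.7% of all genes. GGGCGG, the letters bound by Sp1, stood in 57.1% against 38.2%, and ATGGC, part of the YY1 motif, in 59.5% against 44.2%. Of the other measured genes, 18.9% held CCGGAAG, 10.3% TATAAA, 65.9% GGGCGG and 42.8% ATGGC. Among the 65 mitochondrial ribosomal protein genes the shares were 36.9%, 7.69%, 52.3% and 58.5% in the same order. These are matches of letters, and a gene without a match may start at a base other than the annotated one.

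RNA of the dendritic-cell marker list was present. All 14 dendritic-cell markers lay above the floor in MEDIA, SEA and LPS and 13 of 14 in SEA/LPS. Their summed signal was between 29324 and 39210. In MEDIA the largest of these signals came from Cd74 (8639.1), H2-Aa, H2-Ab1 and H2-Eb1, while Flt3 (62.2) and Cd209a (49.8) were near the floor. Single genes of other lists were brighter than Flt3 there, such as S100a8 at 85.1, so the lists do not settle cell identity. The summed signal of the neutrophil, T, B, NK, mast and erythroid cell and stroma lists was at most 406 on any array; such sums come from different probe sets and numbers of genes and describe each list only. The T cell genes Cd3d, Cd3e, Cd3g and Cd4 were at the floor on every array. Cd8a, Thy1 and Cd28 of the same list were above it on at least 1 array, the highest signal being 61.7 for Cd8a in LPS. The 7 macrophage markers, many of which dendritic cells share, were also above the floor on every array, with summed signals of 6915 to 8095. The LPS response was present on the labelled arrays: Il6, an inflammatory cytokine, read 42.3 in MEDIA, 139.5 in SEA, 5389 in LPS and 2969.5 in SEA/LPS. The spiked hybridisation controls read higher than in MEDIA by 0.09 (log2) on the SEA array, 0.55 on the LPS array and 0.31 on the SEA/LPS array, and the Gapdh 3′ to 5′ signal ratio, a measure of RNA integrity, was 2.21, 2.69, 2.42 and 3.12 in the order MEDIA, SEA, LPS and SEA/LPS. The part of either in the small differences described here was not tested. In whole-culture RNA, fewer cells of a type and less RNA per cell cannot be told apart.

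Of the 48 members, 46 were measured, meaning above a signal floor of 33.3 on at least 1 array, and 44 were above it on all 4. Rpl39l and Rpl3l, the tissue-restricted duplicates of Rpl39 and Rpl3, were at the floor on every array. The brightest 1-symbol probe set stood for each gene. In 35 measured members it had a mean signal of 1000 or more (a limit chosen after seeing the data) and in 11 it did not. These 35 stood at percentile 96.8 of brightness or above among all measured genes. Other genes past the limit, set beside them below, were not matched to them in brightness. The signals of different members were not ranked against each other, since they depend on the probes. A low signal here therefore does not show low expression, and 8 of the 11 dimmer members were also carried by probe sets that list several symbols, which name no single gene. Altogether 102 such probe sets held a ribosomal protein symbol, and 28 further ribosomal protein symbols occurred on these alone, so they are described only as a group.

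**Figure D1:**
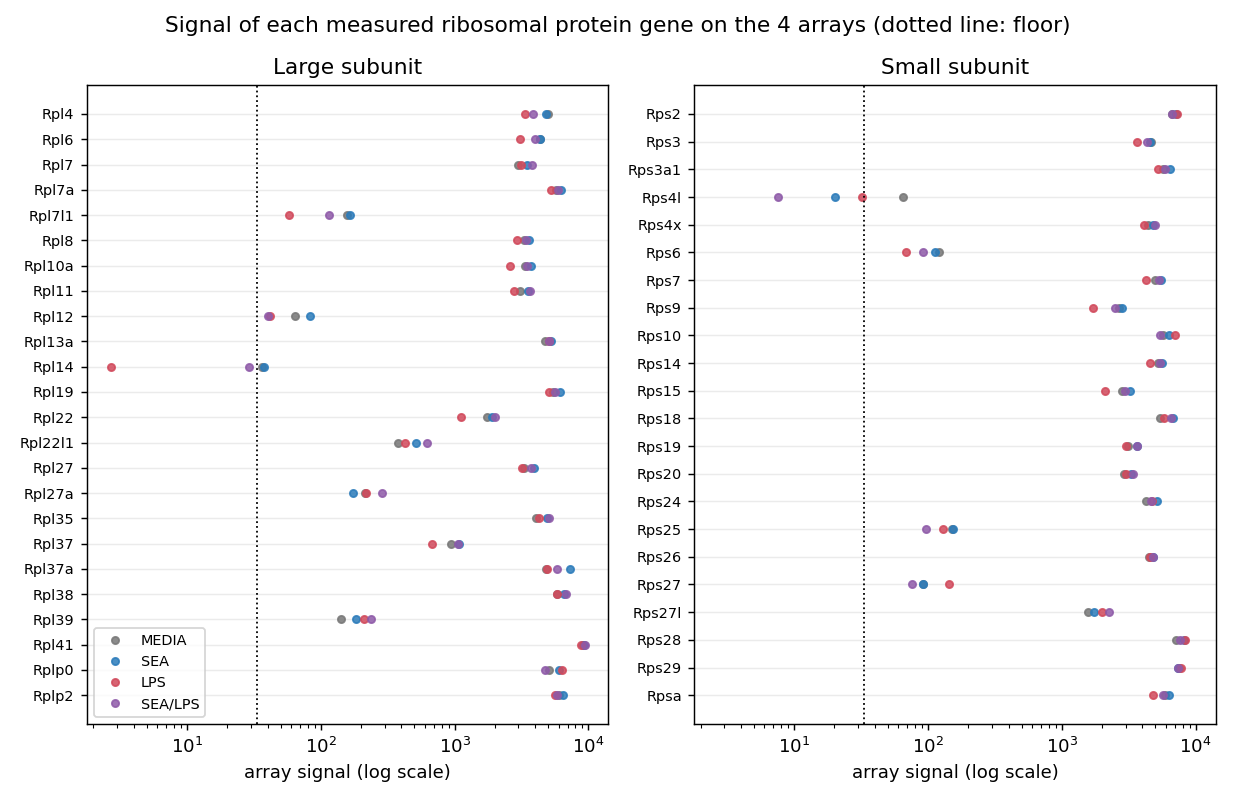
Array signal (log scale) of the 46 measured members on the 4 arrays, 1 point per array, large subunit on the left and small on the right, with the floor of 33.3 as a dotted line. The 4 points of most members with signals of 1000 or more nearly coincide, while those of members such as Rpl7l1, Rps27 and Rps4l spread.

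With SEA alone, ribosomal protein genes read slightly higher than in media. The median log2 difference over the 46 measured members was 0.14, against 0.00 over all 9473 measured genes, and 37 members were above 0 (80.4%, against 48.7% of all genes). The large-subunit median was 0.17 with 20 of 24 above 0, and the small-subunit median 0.11 with 17 of 22 above 0. Differences were small throughout: 1 member was 1.5-fold or more higher (5.11% of all genes were), 1 was 1.5-fold or more lower (4.01% of all genes) and none was 2-fold apart (1.28% of all genes). SEA held the highest of the 4 signals in 22 of the 46 members and the lowest in 1. Of the 35 members with signals of 1000 or more it was the highest in 17 and the lowest in 0, against 23% and 17.9% of the other genes past that limit. Among other genes with signals of 1000 or more the median was 0.02. The direction of the median did not turn under 4 other scalings of the arrays, but its size shrank to 0.05 with scaling to the hybridisation controls and to 0.01 with quantile normalization, where 54.3% of the members were above 0.

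The member past 1.5-fold was Rpl37a, a small zinc-binding protein of the large subunit. It read 4798 in MEDIA, 7313 in SEA, 4874 in LPS and 5823 in SEA/LPS, so the SEA array stood above the other 3 and the log2 difference was 0.61. Its other 2 probe sets differed less, by 0.18 and 0.19, and averaging all 3 gave 0.33. Rpl22l1, the paralog of Rpl22, read 379 in MEDIA, 514 in SEA, 424 in LPS and 623 in SEA/LPS, lowest in MEDIA, with a difference of 0.44 for SEA. Rps18, at the head of the small subunit, read 5456 in MEDIA, 6764 in SEA, 5758 in LPS and 6528 in SEA/LPS and differed by 0.31. Its other probe sets above the floor, about as bright, did not show this rise, at -0.08 and 0.02. Rpl35, which sits at the exit of the peptide tunnel, read 4023 in MEDIA, 4927 in SEA, 4259 in LPS and 5051 in SEA/LPS, and all 6 of its probe sets were higher with SEA, by 0.16 to 0.36. At the other end, Rpl27a read 213 in MEDIA, 174 in SEA, 217 in LPS and 288 in SEA/LPS, lowest with SEA, a difference of -0.29. Rps4l, an autosomal relative of the X-linked Rps4x, was above the floor in MEDIA alone, where it read 65.4, and was at least 1.96-fold lower on each of the other 3 arrays. Its parent Rps4x read 4398 in MEDIA, 4784 in SEA, 4107 in LPS and 4989.7 in SEA/LPS, with MEDIA and LPS a little under the other arrays. Among the 5 highest were also Rpl12 at 0.37 and Rpl39 at 0.36, and among the 5 lowest Rps6 at -0.09, Rpl4 at -0.04 and Rpl41 at -0.02. Another bright probe set of Rpl41 gave 0.46.

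With LPS, most cytosolic ribosomal protein genes differed little from MEDIA, and their differences were spread less widely than those of all genes. Their median log2 difference from MEDIA was -0.10, against -0.06 over all genes, with 19 of 46 above 0 (41.3%, against 43% of all genes). One member, Rps27, was 1.5-fold or more higher (14.1% of all genes) and 6 were 1.5-fold or more lower (21% of all genes), of which 1 was past 2-fold (14.5% of all genes in either direction). The standard deviation over the members was 0.39, against 0.79 over all genes and 0.43 over the mitochondrial ribosomal proteins. It was 0.33 over the RNA polymerase I list, so a narrow spread was not particular to the members. For the 35 members with signals of 1000 or more it was 0.26. Over 535 other genes past that limit, not matched in brightness, it was 0.95. LPS held the lowest of the 4 signals in 24 members and the highest in 6. Of the 35 brighter members it was the lowest in 20 and the highest in 5, against 38.7% and 28.4% of the other genes past the limit. The sign of the median depended on the scaling: it was 0.04 with scaling to the 75th percentile, -0.07 to the median, -0.29 with quantile normalization and -0.64 to the hybridisation controls, with 4.35% to 58.7% of members above 0. The all-gene median itself moved to -0.56 with the hybridisation controls, and relative to it the members stood at -0.08.

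**Figure D2:**
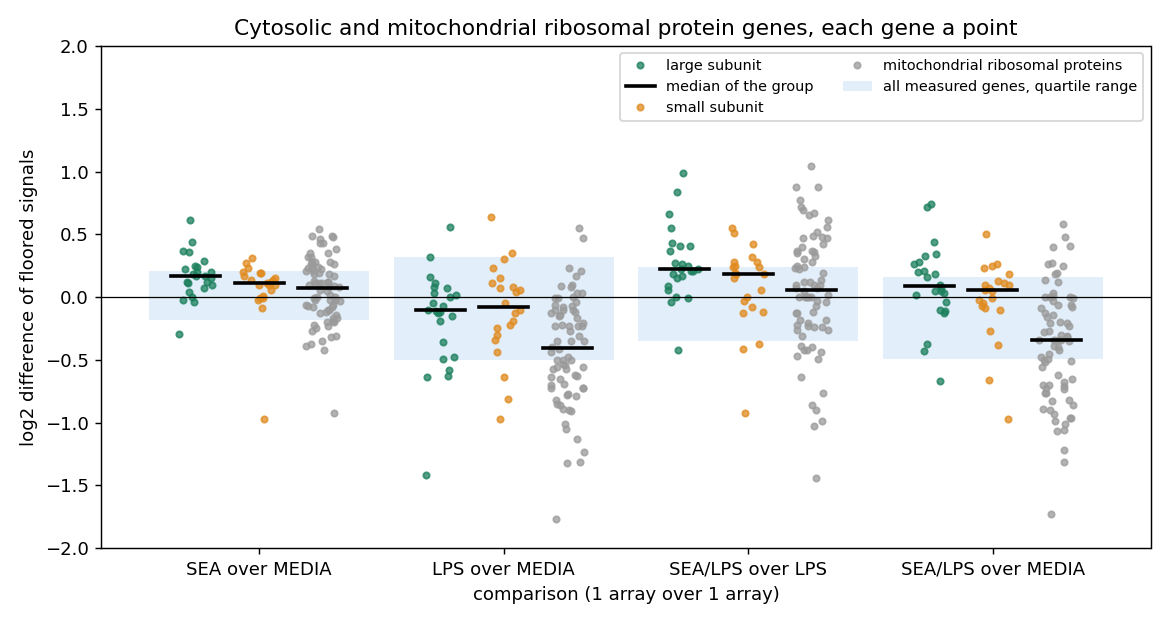
Log2 difference of each large-subunit, small-subunit and mitochondrial ribosomal protein gene in 4 comparisons, each of 1 array over 1 array, with group medians as bars and the quartile range of all measured genes shaded. With the deposited scaling shown, the mitochondrial group lies lower with LPS (median -0.40), the cytosolic groups near 0.

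The 6 lower members were Rpl22, Rpl7l1 and Rpl12 of the large subunit and Rps6, Rps9 and the floored Rps4l of the small. Rpl22, an RNA-binding protein of the large subunit that is dispensable for translation in many cells, read 1754 in MEDIA, 1909.5 in SEA, 1122 in LPS and 2010.0 in SEA/LPS. The LPS array alone was low, with a difference of -0.64, and the second probe set of the gene was lower too, at -1.17. Rpl22l1, which can take the place of Rpl22, was not low with LPS, at 0.16. Rpl7l1, a relative of Rpl7 linked to ribosome assembly, read 156 in MEDIA, 164 in SEA, 58.3 in LPS and 116 in SEA/LPS. Its difference of -1.42 (2.68-fold lower) was the largest of the 46 floored differences. Those of Rpl14 and Rps4l are only bounds, since both genes were under the floor with LPS. The other probe set of Rpl7l1 differed by 0.32 the other way, so the 2 probe sets disagree and their mean was -0.55. The parent gene Rpl7 read 2988 in MEDIA, 3484 in SEA, 3136 in LPS and 3773 in SEA/LPS, a difference of 0.07. Rpl12, which binds at the base of the stalk, read 64.3 in MEDIA, 83.0 in SEA, 41.6 in LPS and 40.4 in SEA/LPS on a probe set near the floor, higher in MEDIA and SEA than in both arrays with LPS.

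Several large-subunit members with signals of 1000 or near it were lower with LPS by less. Rpl4, a tunnel-lining protein, read 4986 in MEDIA, 4856 in SEA, 3331 in LPS and 3871 in SEA/LPS, with both LPS-treated arrays under the other 2, and differed by -0.58. Rpl6 read 4323 in MEDIA, 4312 in SEA, 3095 in LPS and 4003 in SEA/LPS, low on the LPS array alone, and differed by -0.48. Rpl37, a zinc-binding protein, read 945 in MEDIA, 1087 in SEA, 674 in LPS and 1067 in SEA/LPS, again lowest with LPS, at -0.49. Rpl10a, whose place on the ribosome is next to the exit site, read 3330.3 in MEDIA, 3749 in SEA, 2601 in LPS and 3495 in SEA/LPS and differed by -0.36. By contrast Rpl41, the smallest ribosomal protein, read 9234 in MEDIA, 9089 in SEA, 8779 in LPS and 9363 in SEA/LPS on its brightest probe set. Another bright probe set of Rpl41 disagreed, reading 4003 in MEDIA, 5497 in SEA, 6517 in LPS and 4397 in SEA/LPS, higher with LPS by 0.70. Rpl38 read 5818 in MEDIA, 6537 in SEA, 5831 in LPS and 6740.3 in SEA/LPS, with MEDIA and LPS equal at a difference of 0.00. Rpl39, another tunnel protein, read 142 in MEDIA, 182 in SEA, 209 in LPS and 236 in SEA/LPS, and MEDIA was the lowest array, with LPS higher by 0.56.

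In the small subunit, Rps6, the substrate of the S6 kinases, read 120.0 in MEDIA, 112 in SEA, 68.6 in LPS and 92.0 in SEA/LPS on a dim probe set, a difference of -0.81. Rps9, which lies at the mRNA entry, read 2685 in MEDIA, 2800.0 in SEA, 1718 in LPS and 2513 in SEA/LPS, the LPS array alone being low, at -0.64. Its second probe set above the floor was lower as well, at -0.18, and their mean was -0.41. Rps15, which lies in the head near the decoding centre, read 2827 in MEDIA, 3232 in SEA, 2089.9 in LPS and 2969.5 in SEA/LPS, and its 2 probe sets gave -0.50 and -0.44 for LPS and 0.55 and 0.51 for SEA/LPS over LPS. These 2 probe sets thus show the same pattern, low on the LPS array and near MEDIA on the other 2. Rps3, at the mRNA entry site, read 4646 in MEDIA, 4577 in SEA, 3671 in LPS and 4355 in SEA/LPS and differed by -0.34. Rpsa, also known as the laminin receptor, read 5914 in MEDIA, 6334 in SEA, 4812 in LPS and 5701 in SEA/LPS and differed by -0.30. Rps7, which can bind Mdm2, read 4989 in MEDIA, 5494 in SEA, 4288 in LPS and 5350.5 in SEA/LPS, with both of its probe sets lower with LPS.

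Other small-subunit members read higher with LPS than in MEDIA. Rps27 read 91.9 in MEDIA, 91.4 in SEA, 143 in LPS and 76.0 in SEA/LPS, a dim probe set with the LPS array above the other 3, and differed by 0.64. Rps27l, a p53-responsive relative of Rps27, read 1579.5 in MEDIA, 1743 in SEA, 2012 in LPS and 2234 in SEA/LPS, higher on both LPS-treated arrays, and its 3 probe sets gave 0.33 to 0.51 for LPS over MEDIA and 0.50 to 0.63 for SEA/LPS over MEDIA. Rps10, which sits at the mRNA entry and is ubiquitinated on stalled ribosomes, read 5707 in MEDIA, 6320.2 in SEA, 7036 in LPS and 5448 in SEA/LPS. All 5 of its probe sets above the floor were higher with LPS, by 0.07 to 0.30, and lower in SEA/LPS than in LPS, at -0.44 to -0.15. Rps28 read 7098 in MEDIA, 8170.1 in SEA, 8326 in LPS and 7679.9 in SEA/LPS, lowest in MEDIA, and its 3 probe sets were higher with LPS by 0.12 to 0.23.

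Members linked to surveillance, disease, inflammation or the stalk gave mixed values. Rpl11, which joins 5S RNA and can inhibit Mdm2, read 3062 in MEDIA, 3521 in SEA, 2764 in LPS and 3673 in SEA/LPS, lowest with LPS, at -0.15. Rps19 and Rps14, whose loss causes human blood disorders, differed by -0.05 and -0.19: Rps19 read 3104 in MEDIA, 3645 in SEA, 2993 in LPS and 3644 in SEA/LPS, and Rps14 read 5199.5 in MEDIA, 5592 in SEA, 4549 in LPS and 5371 in SEA/LPS. In both genes the LPS array was the lowest, by little. Rpl13a, part of a complex that silences inflammatory mRNAs, read 4707 in MEDIA, 5232 in SEA, 5085 in LPS and 5049 in SEA/LPS on its brightest probe set, a difference of 0.11, while its 4 probe sets ranged from -0.75 to 0.11. Of the stalk proteins, which recruit elongation factors, Rplp2 read 5995 in MEDIA, 6403 in SEA, 5612 in LPS and 5849.8 in SEA/LPS, a difference of -0.10. Rplp0, the base of the stalk, read 5115 in MEDIA, 6072 in SEA, 6366 in LPS and 4763 in SEA/LPS, highest with LPS, at 0.32 over MEDIA, and lowest in SEA/LPS.

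Spread between probe sets of one gene sets how small a difference can be read. The 19 members with 2 or more probe sets above the floor had 59 in all, and the median range within a gene was 0.41 for LPS over MEDIA and 0.27 for SEA over MEDIA. All probe sets of a gene had the same sign in 13 of these members with SEA, in 7 with LPS and in 12 for SEA/LPS over LPS. The widest were Rpl7l1 with LPS, at 1.74, and Rps24 for SEA/LPS over LPS, at 2.14, where its probe sets went from -0.92 to 1.22. The 94 several-symbol probe sets above the floor gave medians close to those of the 86 named ones: 0.16 against 0.17 with SEA, -0.06 against -0.05 with LPS and 0.16 against 0.21 for SEA/LPS over LPS, and 83 of the 94 were above 0 with SEA.

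**Figure D3:**
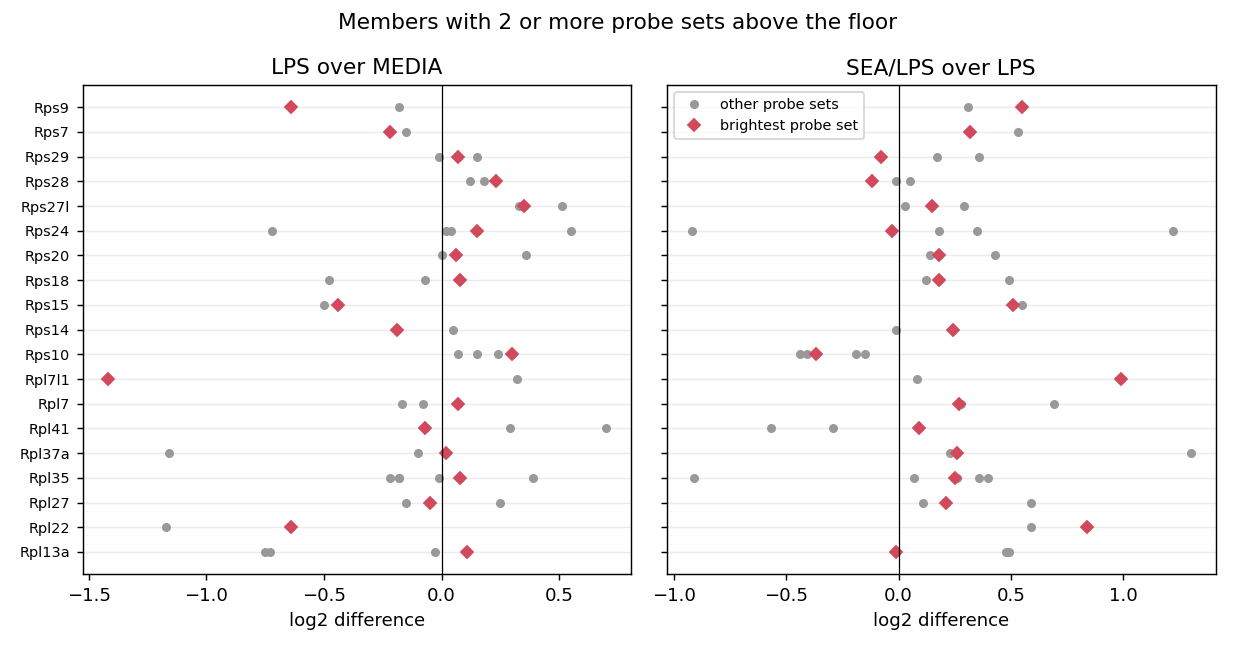
Log2 difference of every probe set above the floor for the 19 members with 2 or more, with LPS over MEDIA on the left and SEA/LPS over LPS on the right, and the brightest probe set as a diamond. Rps10, Rps15 and Rps27l have probe sets that lie together on 1 side of 0 in both panels, while Rps24 and Rpl7l1 spread widely.

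Members with a pyrimidine run near the start and members without one differed in the LPS comparison, a split chosen after seeing the data and given with no test. The 20 measured members with a run had a median of 0.06 for LPS over MEDIA, 13 of them above 0, and the 20 without had -0.23, 3 of them above 0. The difference of 0.29 stayed between 0.26 and 0.33 under the 9 other settings. Among members with signals of 1000 or more the medians were 0.08 for 13 with a run and -0.15 for 17 without. The groups overlapped: with a run, values went from -0.81 (Rps6) to 0.64 (Rps27), and without one from -1.42 (Rpl7l1) to 0.32 (Rplp0). Of each group 13 used a suffix-marked probe set, one that the array's designer flags as possibly matching other transcripts, and 11 belonged to the large subunit. Among other measured genes the corresponding medians were -0.06 and -0.07, and with SEA the members' medians were 0.14 and 0.15. On the other LPS-treated array the split was not present: for SEA/LPS over MEDIA the medians were 0.08 with a run (12 of 20 above 0) and 0.07 without (13 of 20). With a run at the start base itself the medians for LPS were 0.04 in 8 members and -0.11 in 32. Of those 8, whose sequences are printed above, 5 were above 0 (Rpl38 barely) and Rps6, Rpl14 and Rplp2 below it. The Rpl14 value is a bound, as its LPS signal was under the floor. Of the 4 printed without a run, Rplp0 was above 0 at 0.32, and Rpsa, Rpl11 and Rps3 were below it at -0.30, -0.15 and -0.34. The LPS split thus rests on 1 LPS array against 1 MEDIA array.

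**Figure D4:**
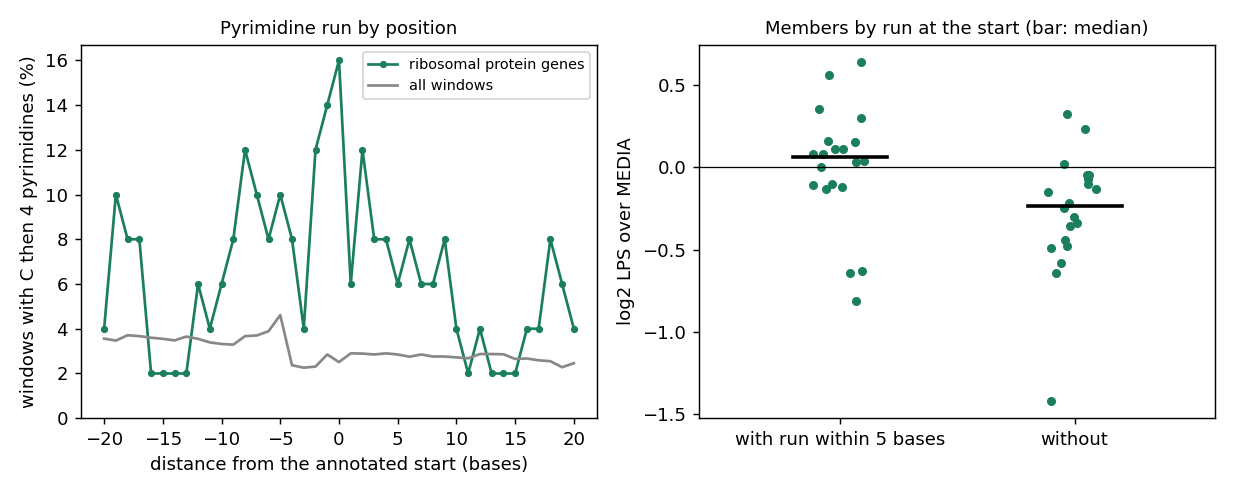
Left, the share of start windows (%) in which a C followed by 4 pyrimidines begins at each distance from the annotated start, for 50 windows of ribosomal protein genes and for all 32851 windows; right, log2 difference of LPS over MEDIA for members with and without a run near the start, with medians as bars. The share peaks at 16% at the start base in ribosomal protein genes, against 2.51% of all windows, and the 2 groups of members overlap.

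Adding SEA to LPS was accompanied by slightly higher signals than LPS alone. The median over the 46 members was 0.21, against -0.01 over all genes, and 34 were above 0 (73.9%, against 42.7% of all genes), 20 of 24 in the large and 14 of 22 in the small subunit. In all, 3 were 1.5-fold or more higher (7.76% of all genes), 1 was lower (13.4% of all genes) and none was past 2-fold (4.87% of all genes). The direction held under 4 other scalings, with medians of 0.25 to 0.45 and 80.4% to 87% of members above 0. Among other genes with signals of 1000 or more the median was 0.10. Rpl22 gave 0.84, Rpl7l1 0.99 and Rpl37 0.66, and the LPS array was the lowest of the 4 in each. The other probe set of Rpl7l1 gave 0.08, and the mean of both, 0.54, is under 1.5-fold; with quantile normalization Rpl37 was under it too, at 0.58. Rpl22l1 and Rps9 followed at 0.55 and 0.55. Rps27 gave -0.92, Rplp0 -0.42 and Rps10 -0.37, and the LPS array was the highest of the 4 in each. Rps25 at -0.41 and Rps2 at -0.13 completed the 5 lowest. This comparison shares the LPS array with the previous one, so an LPS array that reads low or high enters both with opposite signs.

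Set against MEDIA, a comparison that does not use the LPS array, the SEA/LPS array had a median difference near 0. It was 0.06 against -0.12 over all genes, with 29 of 46 above 0 (63%, against 34.5% of all genes). In all, 2 members were 1.5-fold or more higher (9.89% of all genes), 3 were lower (20.2%), and none was past 2-fold (11.6%). The members past 1.5-fold were all among the 11 under signal 1000. The sign of the median turned under 2 other scalings, to -0.25 with the hybridisation controls and -0.09 with quantile normalization, and without suffix-marked probe sets, where 18 members were left, to -0.12. The share of members above 0 went from 13% to 82.6% over the other scalings and that of all genes from 18.9% to 49.9%. With the hybridisation controls the all-gene median was -0.42, so the members stood 0.17 above it, against 0.19 with the deposited scaling. Genes with signals of 1000 or more were closer with the deposited scaling. Other genes with signals of 1000 or more had a median of 0.06, with 54.4% above 0. The 35 members past that limit had a median of 0.07, with 71.4% above 0. Rpl39 and Rpl22l1 were the members that were higher, at 0.74 and 0.72. Both fell under 1.5-fold with the hybridisation controls, at 0.43 and 0.40. Lower ones were Rpl12 at -0.67, Rps25, a protein needed by some viral internal entry sites, at -0.66, and Rps4l, at least 1.96-fold. Rps25 read 152 in MEDIA, 153 in SEA, 128 in LPS and 96.4 in SEA/LPS, lowest in SEA/LPS. Rpl12 and Rps25 were under 1.5-fold with scaling to the 75th percentile (-0.47 and -0.46), to the median (-0.45 and -0.44), with quantile normalization (-0.44 each) and with no floor (-0.51 and -0.58), and Rpl12 was at 0.00 with the floor at percentile 60. Rps27l at 0.50, Rpl27a at 0.44 and Rpl7 at 0.34 were the next highest, and Rpl7l1 at -0.43 and Rps6 at -0.38 the next lowest.

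The SEA/LPS over LPS difference less the SEA over MEDIA difference, which asks whether SEA reads alike with and without LPS, had a median of 0.04 over the members, against -0.06 over all genes, with 26 of 46 above 0 (56.5%, against 45.5% of all genes, and 69.6% to 87% under the other scalings). In all, 4 members were past 1.5-fold on the higher side (11.6% of all genes) and 2 on the lower (17.8%), with none past 2-fold (9.7%). On the higher side were Rpl7l1 at 0.92 (its other probe set gave -0.31), Rpl22 at 0.72, Rpl27a at 0.70 and Rps4l, whose value follows from floored signals. Rps6 followed at 0.52. On the lower side were Rps27 at -0.91 and Rplp0 at -0.67, followed by Rps10 at -0.52, Rps25 at -0.42 and Rpl12 at -0.41. Between probe sets of a gene this quantity had a median range of 0.63, and 7 of 19 members had 1 sign throughout. Rps6, Rps10, Rps25 and Rpl12 lay within that range.

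**Figure D5:**
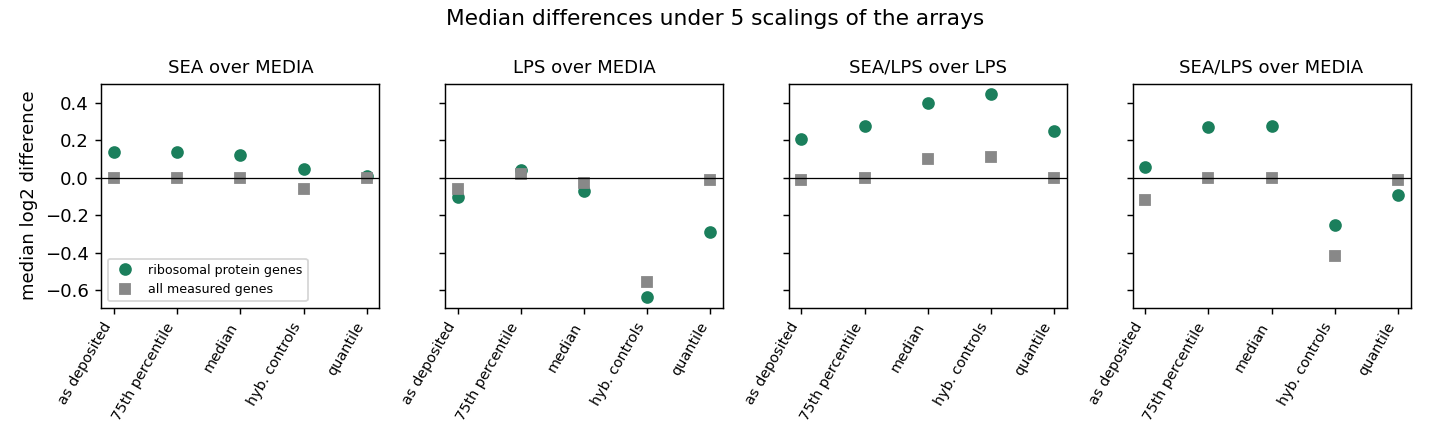
Median log2 difference of the ribosomal protein genes and of all measured genes under the deposited scaling and 4 others, for the 4 comparisons. The members' median for SEA/LPS over LPS lies above the all-gene median in every scaling, while that for LPS over MEDIA lies on either side of 0.

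With the deposited scaling, mitochondrial ribosomal protein genes and most lists of genes that assemble or regulate the ribosome had medians further below 0 with LPS than its proteins. The mitochondrial gap depended on the processing. With quantile normalization the median was -0.31 for the mitochondrial genes and -0.29 for the cytosolic ones. Without suffix-marked probe sets the medians were -0.23 and -0.12. Of 74 measured mitochondrial ribosomal protein genes, 63 were below 0 with LPS, with a median of -0.40, against 5045 of 9473 genes below 0, and 7 were past 2-fold (14.5% of all genes), for example Mrps18b, which read 138 in MEDIA, 151 in SEA, 40.5 in LPS and 66.5 in SEA/LPS, and Mrpl18, which read 131 in MEDIA, 164 in SEA, 52.4 in LPS and 77.5 in SEA/LPS; both were lowest on the LPS array. Of 28 measured genes of rRNA processing and ribosome assembly, 21 were below 0 with LPS, the median was -0.70, and 16 were 1.5-fold or more lower, against 21% of all genes. Nop2, an rRNA methyltransferase of the nucleolus, read 155 in MEDIA, 156 in SEA, 22.5 in LPS and 26.1 in SEA/LPS, under the floor on both LPS-treated arrays. Nolc1, a nucleolar partner of the small nucleolar RNA particles, read 108 in MEDIA, 64.0 in SEA, 34.3 in LPS and 39.8 in SEA/LPS, and Ltv1, an assembly factor of the small subunit, read 233 in MEDIA, 157 in SEA, 91.5 in LPS and 149 in SEA/LPS. Both were lowest on the LPS array. In all, 3 of the 28 were 1.5-fold or more higher (14.1% of all genes), among them Eif6, an anti-association factor of the large subunit that was highest on the LPS array, reading 780.0 in MEDIA, 809 in SEA, 1779 in LPS and 583 in SEA/LPS, and Sbds, which releases it, reading 309.8 in MEDIA, 248 in SEA, 685 in LPS and 578 in SEA/LPS. The median of this list stayed below 0 for LPS under the 9 alternatives (from -1.16 to -0.16).

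Regulators of ribosome production included genes with larger differences. In the list of mTORC1, S6 kinase and Myc genes, 15 were measured, with a median of -0.52 for LPS; 7 were 1.5-fold or more lower (21% of all genes) and 3 higher (14.1% of all genes). Myc, a transcription factor that drives ribosome production, read 190.3 in MEDIA and 230.6 in SEA and was under the floor on both LPS-treated arrays, lower than MEDIA by at least 2.51 on the log2 scale. Mxd1, an antagonist of Myc, read 62.7 in MEDIA, 67.2 in SEA, 321 in LPS and 247 in SEA/LPS, and Larp1, which binds TOP mRNAs, read 449 in MEDIA, 467 in SEA, 828 in LPS and 1021 in SEA/LPS; both were higher on the LPS-treated arrays. Eif4ebp1, a translation repressor that mTORC1 inactivates, read 827 in MEDIA, 823 in SEA, 282 in LPS and 346 in SEA/LPS. Of 16 further genes with TOP mRNAs, 12 were below 0 with LPS, at a median of -0.38, against 5045 of all 9473 genes. For SEA/LPS over LPS 13 were above 0, at 0.26, against 42.7% of all genes and 60.9% of other genes with signals of 1000 or more. Eif4b, an RNA helicase cofactor, read 651 in MEDIA, 685 in SEA, 258 in LPS and 402 in SEA/LPS, and Eef2, the translocase, read 3155 in MEDIA, 2013 in SEA, 1744 in LPS and 2106 in SEA/LPS, whereas Tpt1 read 10446 in MEDIA, 10486 in SEA, 12629 in LPS and 10817 in SEA/LPS. The RNA polymerase I list had 10 of 12 below 0 with LPS (median -0.25) and the chaperone, export and quality control list 14 of 16 (median -0.56). The value for all genes was again 5045 of 9473 (median -0.06). In the p53 list, where ribosomal proteins free of the ribosome can act through Mdm2, Mdm2 read 305 in MEDIA, 376 in SEA, 1158 in LPS and 563 in SEA/LPS, highest with LPS, and the 5 measured genes had a median of 0.00. The 3 measured genes of the S6 kinase family were below 0 with LPS, Rps6ka3 at -0.79 and the other two against a floored LPS array.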

How the data were processed

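The authors' deposited table holds 1-colour array intensity values for 22690 probe sets on 4 arrays. Its 2% trimmed means are equal, so the arrays had been scaled; their software and background steps: not given in the sources used here. Of the probe sets, 64 were controls, 20380 carried 1 gene symbol, 691 several and 1555 none. Intensities at or under the 40th percentile (33.3) were raised to it before log2; the brightest probe set stood for a gene, and 9473 of 12393 genes had an array above the floor. Groups of 1 sample allow no test. Each difference is between single arrays, and an array at the floor gives a bound. Named genes were the members with the 5 highest and 5 lowest differences, all past 1.5-fold, duplicates with parents, the fixed members that have a 1-symbol probe set, and up to 4 per other list. Members and lists were chosen with earlier results of these data known. Scaling, floor and probe set choice were varied. Start windows came from RefSeq. The code was tested on simulated data (Python 3.11.15, pandas 2.3.3).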

Additional observations from a re-analysis of the deposited data

Results flagged for a closer look

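In 3 members the SEA differences had opposite signs without and with LPS and both exceeded the median standard deviation between probe sets. Within a member, that standard deviation was 0.14 for SEA over MEDIA and 0.20 for SEA/LPS over LPS. Other members also had opposite signs, such as Rps6 (-0.09 and 0.42), but not past both limits. For SEA over MEDIA, Rplp0 and Rps10 lay under the median range of 0.27. The share of all genes that meet both conditions was not counted. The difference between the SEA differences was not tested, since each group has 1 array. Between probe sets of a member its median range was 0.63, which Rps10 did not reach. Rpl27a was lower with SEA alone (-0.29) and higher with SEA added to LPS (0.41), a difference of 0.70. Rplp0 was higher with SEA alone (0.25) and lower with SEA added to LPS (-0.42), a difference of -0.67. Rps10 gave 0.15 and -0.37, a difference of -0.52, and all 5 of its probe sets had these signs.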

How the results depend on the processing

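The median of the members kept its sign with SEA over MEDIA and with SEA/LPS over LPS under the settings tried, and shifted by over 0.1 only with quantile normalization in the first (0.01) and with scaling to the median (0.40) or the hybridisation controls (0.45) in the second. With LPS over MEDIA it was 0.04 with scaling to the 75th percentile, -0.64 with the hybridisation controls and -0.29 with quantile normalization. With SEA/LPS over MEDIA it was 0.27 with the 75th percentile, 0.28 with the median, -0.25 with the hybridisation controls, -0.09 with quantile normalization and -0.12 without suffix-marked probe sets. The SEA difference with LPS minus that without was 0.26, 0.37 and 0.19 with the median, the hybridisation controls and quantile normalization, and -0.03 without suffix-marked probe sets. The 75th percentile, median and control scalings move every gene of an array alike, and quantile normalization does not; the cause of the other shifts was not tested.

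Subunit medians turned with them: for LPS over MEDIA to 0.03 (large) and 0.06 (small) with the 75th percentile; for SEA/LPS over MEDIA to -0.23 and -0.26 with the hybridisation controls, -0.08 and -0.10 with quantile normalization, and -0.03 and -0.32 without suffix-marked probe sets; and for the difference of SEA differences to -0.03 (large) without them. Mitochondrial ribosomal proteins turned to -0.02 with SEA under the hybridisation controls, and their difference of SEA differences to -0.01 with the floor at percentile 60, -0.03 with all probe sets averaged and -0.02 without suffix-marked ones. The assembly list turned to 0.01 with SEA when probe sets were averaged, to 0.06 and 0.04 for SEA/LPS over LPS and to 0.07 and 0.10 for the difference of SEA differences, with the median and the hybridisation controls.

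Counts of members past a fold limit, either direction, moved as follows. For SEA over MEDIA, the count past 1.5-fold was 2 and became 1 with the median, the hybridisation controls, quantile normalization, the floor at percentile 60, probe sets averaged or no suffix-marked probe sets. For LPS over MEDIA, the count past 1.5-fold was 7 and became 26 with the hybridisation controls, and 12 with quantile normalization. For SEA/LPS over LPS, the count past 1.5-fold was 4 and became 11 with the median, and 12 with the hybridisation controls, and 7 with the floor at percentile 20. For SEA/LPS over MEDIA, the count past 1.5-fold was 5 and became 3 with the floor at percentile 60 or no floor and 16 added. For the difference of SEA differences, the count past 1.5-fold was 6 and became 10 with the hybridisation controls. For SEA over MEDIA, the count past 2-fold was 0 and became 1 with the hybridisation controls, the floor at percentile 20 or no floor and 16 added. For LPS over MEDIA, the count past 2-fold was 1 and became 9 with the hybridisation controls, and 3 with the floor at percentile 20, and 2 with no floor and 16 added, and 0 with probe sets averaged. For SEA/LPS over LPS, the count past 2-fold was 0 and became 1 with the 75th percentile or quantile normalization, and 2 with the median, the hybridisation controls, the floor at percentile 20 or no floor and 16 added. For SEA/LPS over MEDIA, the count past 2-fold was 0 and became 1 with the hybridisation controls, the floor at percentile 20 or no floor and 16 added. For the difference of SEA differences, the count past 2-fold was 0 and became 1 with the median, quantile normalization, the floor at percentile 20 or no floor and 16 added, and 4 with the hybridisation controls, and 2 with no suffix-marked probe sets. The remaining counts lay within 1.5 times the first. Without suffix-marked probe sets 18 members were left, so 6 past 1.5-fold for LPS over MEDIA and 8 for the difference of SEA differences are larger shares than 7 and 6 of 46. Of 18 differences of single members past 1.5-fold, 12 fell under it in at least 1 setting. Those of Rps4l are not among the 12, but were not scored with the floor at percentile 60, where Rps4l was not measured. Rps27 with LPS was 0.09 with the hybridisation controls, and Rpl22 and Rps9 with LPS were -0.51 with the 75th percentile.

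No paired analysis was possible because each group has 1 sample and the labels carry no replicate numbers. With 1 array a group, the spread between cultures is unknown, and the number of arrays limits every statement.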
